A study of Mus musculus with 4 samples.

Results

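The cytosolic ribosomal protein genes were described across the epithelium of the mouse colon, at its surface and in its crypts, on a control diet and on a diet with added heme. Members were all genes whose symbol starts with Rpl or Rps followed by the number or letter of a ribosomal protein, measured by array probe sets that carry 1 gene symbol only, with the probe sets of a gene averaged. The rule found 59 of 19938 measured genes, 37 of the large subunit and 22 of the small subunit. The mouse annotation held 81 coding symbols of this form. Of these, 23 had no probe set with a single symbol and were not analysed here as genes, among them Rpl3, Rpl11, Rpl32 and Rps27a.

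Male C57BL/6 mice, 11 weeks old, ate a diet with 40% of its energy as fat and with little calcium, for 14 days. The heme groups received the same diet with heme at 0.5 µmol per g, and the control groups received none. Surface and crypt epithelium were cut from frozen colon by laser capture microdissection, in which a laser isolates chosen cells under the microscope. RNA was pooled over the mice of a diet, and 1 array was hybridised for each of the 4 groups. The pools held 4 mice for the surface and the crypt of the control diet and 3 mice for those of the heme diet. Each diet's surface pool and crypt pool were drawn from the same animals. With 1 array per group there was no spread between replicates, so no test was possible and no error accompanies any difference below. A difference in these values cannot tell fewer cells of a type apart from less RNA per cell.

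The ribosome builds every cytosolic protein. Its small subunit reads the messenger RNA, and its large subunit joins the amino acids. The mRNAs of ribosomal proteins commonly start with a cytosine followed by a run of pyrimidines, the 5′ terminal oligopyrimidine tract, through which mTOR and Larp1 control their translation together. In the colon, stem and dividing cells sit in the crypts, and mature absorptive cells line the surface from which they are shed.

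The start sites of members are shown because this tract is the sequence feature for which the family is best known, and the selection of members did not use it. RefSeq promoters on build GRCm38.p6 covered 47 of the 59 members with 56 annotated starts. Each line below gives 10 bases before the annotated start and 20 bases from it, 5′ to 3′ on the gene's strand, and capitals mark an unbroken run of C and T that begins with a C at the start.
Rps6, chr4:86857348-86857377, minus strand: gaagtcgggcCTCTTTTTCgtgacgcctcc
Rps10, chr17:27635225-27635254, minus strand: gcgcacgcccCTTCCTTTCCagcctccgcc
Rps18, chr17:33955646-33955675, minus strand: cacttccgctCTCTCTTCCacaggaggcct
Rps15a, chr7:118116128-118116157, minus strand: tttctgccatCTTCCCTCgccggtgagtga
Rpl38, chr11:114668570-114668599, plus strand: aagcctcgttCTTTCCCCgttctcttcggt
Rpl28, chr7:4792955-4792984, plus strand: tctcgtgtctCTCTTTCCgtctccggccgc
Rpl14, chr9:120571507-120571536, plus strand: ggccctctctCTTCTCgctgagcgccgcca
Rplp2, chr7:141447641-141447670, plus strand: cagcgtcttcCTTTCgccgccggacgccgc
Rps27l, chr9:66946076-66946105, plus strand: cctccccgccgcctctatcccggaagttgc
Rpl9, chr5:65391412-65391441, minus strand: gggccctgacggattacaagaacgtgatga
The first 8 genes carry such a run. Rps27l, of which 1 of its annotated starts is shown, and Rpl9 are shown for their values below, and neither window has the run. Most member starts lack it, among them that of Rpl12, so its absence does not mark these genes.

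A C at the annotated start followed by at least 4 more C or T bases was found at 10 of the 56 member starts (17.9%), against 2.51% of 32851 starts of all genes. None of 75 starts of mitochondrial ribosomal protein genes had it. A C followed by at least 7 C or T bases anywhere within 25 bases of the start was found at 23 member starts (41.1%), against 15.5% of all starts. These runs were searched on the gene's strand alone. The letters CCGGAAG, searched on both strands over 250 bases before to 50 bases after the start, were present at 19 member starts (33.9%), against 8.86% of all starts. The reverse form of those letters, CTTCCGG, can overlap a C and T run. Mitochondrial ribosomal protein starts held CCGGAAG at 26 of 75 (34.7%). The 10 members with the run at their start had a median surface minus crypt difference of -1.09 on the control diet, and the 34 other members with a promoter and a level above the floor defined below had -1.15. Some of the 34, such as Rpl27a and Rpl4, had a long C and T run near the annotated start. These groups therefore do not separate genes with the tract from genes without it, and no relation of the tract to the difference was tested. An annotated start can differ from the one used in the tissue, and these matches describe letters only.

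Values are log2 expression levels, so a difference of 1 is a 2-fold difference. Levels of an array or gene are given with the control diet first (surface, then crypt) and the heme diet second (surface, then crypt). A floor of 5.75, which is the median over every gene and array, separated low from other levels, and a comparison used a gene only where at least 1 of its arrays reached the floor. A gene was called lower or higher where it differed at least 2-fold. The largest, median and smallest values of all probe sets were similar between arrays, with medians from 5.42 to 5.54. All 8 markers of surface colonocytes were higher at the surface on both diets, with median differences of 4.57 and 3.57. All 7 measured markers of crypt progenitors were lower at the surface on the control diet, by a median of -2.46, as were the 6 that could be compared on the heme diet, by -2.23. The captured compartments thus matched their labels by these lists.

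Most ribosomal protein genes were among the highest values on every array. The median of the large subunit genes was 9.50, 10.78, 9.49 and 10.63 over the 4 arrays, and that of the small subunit genes was 9.66, 10.80, 9.52 and 10.72. Both crypt medians were above both surface medians in each subunit. The median large subunit gene lay at percentile 94.3 of all genes in control surface and at 99.2 in control crypt, and the median small subunit gene at 95.1 and 99.2. Tissue-restricted relatives of ribosomal proteins, 3 in all, were below the floor on all 4 arrays. These were Rpl3l, known from striated muscle, and Rpl10l and Rpl39l, known from the testis, and no array had any of them above 4.25.

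**Figure D1:**
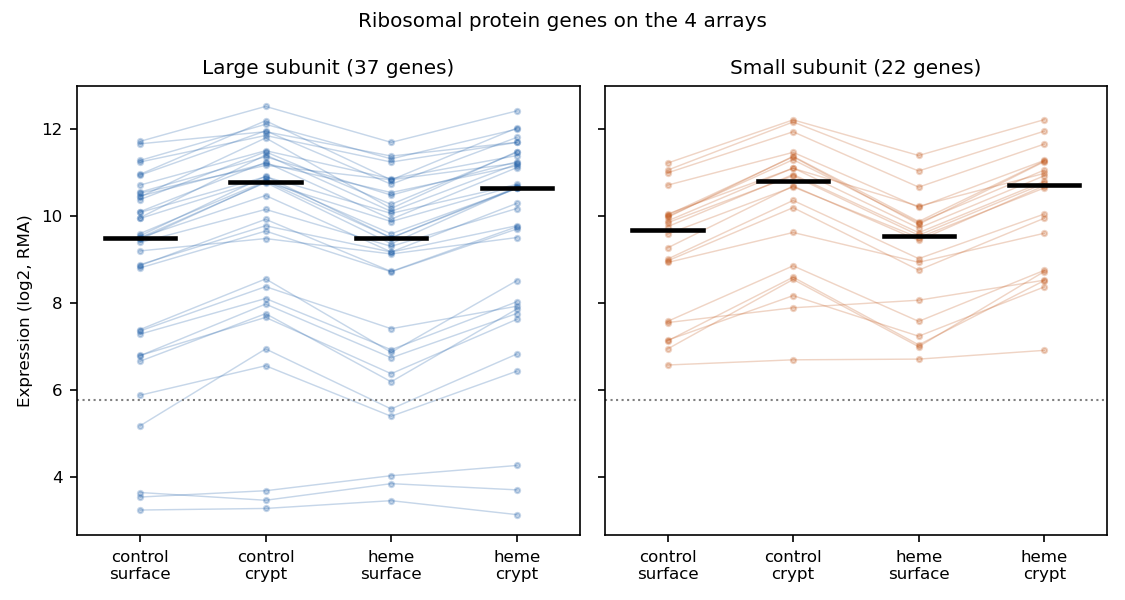
Log2 expression level (vertical axis) of each of the 37 large subunit genes (left) and 22 small subunit genes (right) on the 4 arrays, 1 array per group, with 1 line per gene, a black bar at the median and a dotted line at the floor of 5.75. The crypt medians, 10.63 to 10.80, sit above the surface medians, 9.49 to 9.66, on both diets.

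Surface and crypt epithelium were compared first within the control diet, to see how the family differs along the crypt axis. Ribosomal protein genes were lower at the surface. The large subunit genes had a median difference of -0.94 over the 34 above the floor, a 1.92-fold higher level in the crypt, and the small subunit genes had -1.15 over 22, a 2.23-fold higher level. All 56 were below 0, as were 52.5% of all genes, from Rpl12 at -1.77 to Rps4l at -0.12. At least 2-fold lower levels were found for 16 of the 34 large subunit genes and 16 of the 22 small subunit genes, and no member was at least 2-fold higher. Over all genes tested, 13.5% were at least 2-fold lower at the surface, 12% were at least 2-fold higher and the median difference was -0.048. With a smaller threshold of 1.5-fold, 32 large and 20 small subunit genes were lower, against 25.2% of all genes.

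Among large subunit genes, Rpl12, at the base of the stalk where factors bind, had the largest control diet difference. Its levels were 5.17, 6.94, 5.55 and 6.82. Only its crypt levels were above the floor, so its 3.41-fold difference rests in part on low surface values. Rpl10a, which forms the mobile stalk where spent tRNAs leave, had levels of 9.95, 11.40, 10.10 and 11.19, with both crypt arrays above both surface arrays. Its control diet difference was -1.44 and its heme diet difference was -1.09. Rpl36a differed by -1.37 and -1.14 on the control and heme diets. Rpl5 carries the 5S ribosomal RNA into the large subunit together with Rpl11, which was not analysed here, and both bind the p53 inhibitor Mdm2 when ribosome assembly fails. Its levels were 10.43, 11.79, 10.17 and 11.47, again without overlap between surface and crypt, and its difference was 2.56-fold on the control diet.

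The stalk proteins Rplp0, Rplp1 and Rplp2, which recruit elongation factors, differed by less than 2-fold on the control diet. Rplp0 had levels of 11.71, 12.51, 11.69 and 12.41, a difference of -0.80 on the control diet and -0.72 on the heme diet. Rplp1 differed by -0.82 and -0.77. Neither gene reached 2-fold on the heme diet. Rplp2 had levels of 5.87, 6.55, 5.39 and 6.42, all close to the floor, and differed by -0.68 and -1.04, past 2-fold on the heme diet. Proteins around the exit of the nascent chain, Rpl22, Rpl23a and Rpl26, differed by -1.16, -0.91 and -0.88 on the control diet. Rpl17, Rpl31, Rpl35 and Rpl39 of that group were not analysed here. Rpl24, which lies at the interface of the subunits, differed by -0.75.

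The large subunit genes with the smallest differences were Rpl9, Rpl29, Rpl21, Rpl41 and Rplp2. Rpl9, a protein near the base of the factor-binding stalk, had levels of 11.65, 11.93, 11.37 and 11.69, so its crypt levels were 1.21-fold those of the surface on the control diet. All 8 of its probe sets were between -0.34 and -0.20. Rpl29, which is dispensable for life in mice but needed for normal growth, had levels of 9.19, 9.47, 9.12 and 9.50. The 4 levels of each of these genes spanned less than those of the other large subunit genes above the floor. Rpl21 differed by -0.61 and Rpl41, the shortest ribosomal protein, by -0.64.

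Among small subunit genes, Rps15a had the largest difference. Its levels were 6.94, 8.53, 6.99 and 8.72, a 3.03-fold higher level in the crypt on the control diet, and the heme diet difference was -1.73. Rps19, the gene most often mutated in Diamond-Blackfan anaemia, had levels of 7.12, 8.59, 7.03 and 8.51. Rpsa, also known as the laminin receptor precursor, had levels of 9.26, 10.68, 9.43 and 10.69. For each of these 3 genes the crypt arrays stood more than 2-fold above the surface arrays on both diets. Rps18 had levels of 9.96, 11.37, 9.87 and 11.26, and Rps28 differed by -1.35 and -1.03. Rps6, whose protein is phosphorylated by S6 kinase downstream of mTOR, had levels of 11.05, 12.16, 11.03 and 11.94 and differed by -1.11 and -0.91.

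Genes of the decoding centre and the mRNA path were spread on both sides of the small subunit median. Of the 6 measured here, Rps2, Rps3, Rps9, Rps14, Rps15 and Rps28, 4 were at least 2-fold lower at the surface on the control diet and 5 on the heme diet. These were 66.7% and 83.3% of the 6, beside 72.7% and 68.2% of all 22 small subunit genes and 13.5% and 16.5% of all genes. The control diet differences of the 6 genes ran from -1.35 for Rps28 to -0.75 for Rps14, with a median of -1.21. The smallest differences of the small subunit were those of Rps4l, Rps27l, Rps29, Rps14 and Rps7. Rps29 differed by -0.69 and Rps7 by -0.94. Rps4l, a relative of Rps4x that RefSeq lists as a transcribed pseudogene, had levels of 6.57, 6.69, 6.70 and 6.90, and its control diet difference of -0.12 turned to 0.0066 with quantile normalization. Its 2 probe sets differed by 0.84 in this comparison, so it has no clear direction.

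**Figure D2:**
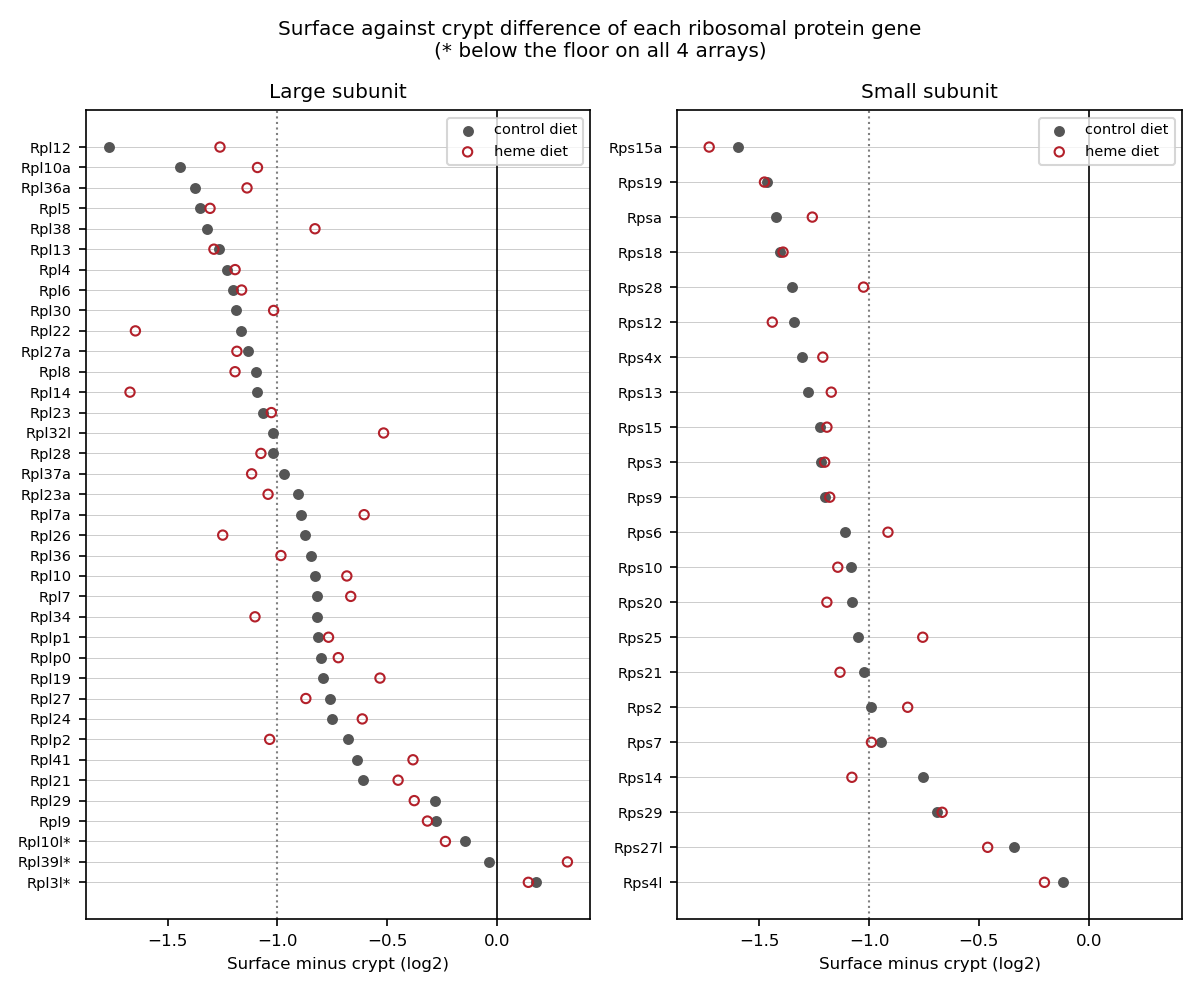
Surface minus crypt difference in log2 level (horizontal axis) of each large subunit gene (left) and small subunit gene (right), filled points for the control diet and open points for the heme diet. Each point is a difference of 2 arrays, a solid line marks 0 and a dotted line marks a 2-fold lower level, and 32 genes on the control diet and 34 on the heme diet lie at or beyond it.

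The heme diet gave a separate comparison of surface and crypt, which shares no array with that of the control diet. The large subunit genes had a median difference of -1.03 over 34 and the small subunit genes -1.16 over 22. At least 2-fold lower levels at the surface were found for 19 large and 15 small subunit genes, against 16.5% of all genes tested. With each array centred on the median of all genes, 10 large subunit genes were lower by at least 2-fold. No member was at least 2-fold higher, against 15.3% of all genes. All 56 were again below 0, as were 52.4% of all genes. Differences ran from -1.73 for Rps15a to -0.20 for Rps4l. Of the 16 large subunit genes lower by at least 2-fold on the control diet, 14 (87.5%) were so on the heme diet, which is 73.7% of the 19 there. Of the small subunit genes, 14 were shared, 87.5% of the 16 on the control diet and 93.3% of the 15 on the heme diet. Rpl32l, Rpl38, Rps25 and Rps6 passed the threshold on the control diet alone, and Rpl23a, Rpl26, Rpl34, Rpl37a, Rplp2 and Rps14 on the heme diet alone, but the 2-fold threshold lies close to the medians and no difference between diets was tested.

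Both crypt arrays were above both surface arrays for 54 of the 56 members above the floor, all 34 large subunit genes and 20 of the 22 small subunit genes. Over all genes, 38.9% had this order. Rps4l and Rps27l were the members without it. The most frequent full order, in 33 of 59 genes, ran from control crypt down through heme crypt and control surface to heme surface. In 11 genes the surface arrays changed places. Across genes, the differences on the control and heme diets had a Pearson r of 0.70 over 33 large subunit genes and 0.91 over 22 small subunit genes, and 0.89 over 9523 genes of all kinds. These are descriptions across genes of the same arrays, and genes are not replicates.

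Many mouse ribosomal protein genes have near-identical processed copies, so a probe set named for a gene may also report on its copies, and the levels of relatives such as Rpl32l and Rps4l are uncertain. The 59 members came from 215 probe sets, of which 19 had the same 4 values as another probe set of their gene, and 39 members had more than 1. Within those 39 genes, the range of the control diet difference over probe sets had a median of 0.16, and none exceeded 1. The range of levels was wider, with a median of 0.58 and a highest value of 3.51 for Rpl23. Rps12 had the most probe sets, 14, and the 20 members with 1 probe set give no such comparison. A further 233 probe sets carried a matching symbol together with other symbols and named no single gene. Their median difference was -0.91 on the control diet and -0.74 on the heme diet, with 232 and 233 of them below 0.

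**Figure D3:**
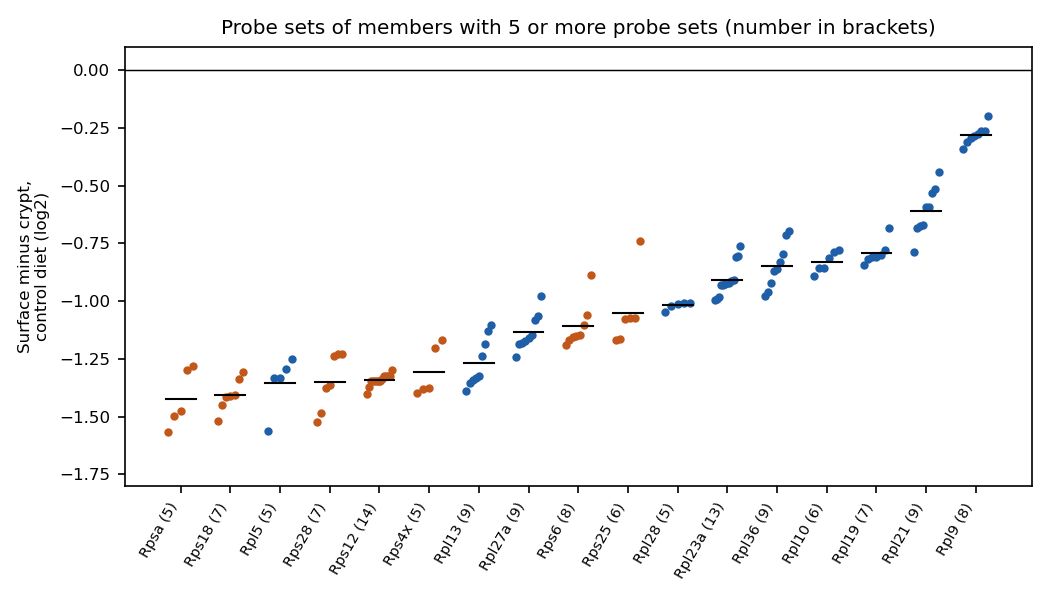
Surface minus crypt difference on the control diet in log2 level (vertical axis) of every probe set of the 17 members with at least 5 probe sets, blue for the large and orange for the small subunit, with a black bar at the gene's mean. The 8 probe sets of Rpl9 lie between -0.34 and -0.20 and above those of the other genes shown.

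The heme diet was compared with the control diet at the surface, to see whether the family differed with dietary heme where the cells meet the gut contents. No member differed 2-fold, against 3.62% of all genes tested that were at least 2-fold higher and 2.01% that were at least 2-fold lower. None differed 1.5-fold, against 10.5% of all genes higher and 7.92% lower. The large subunit genes had a median of -0.090, with 25 of 33 below 0, and the small subunit genes -0.050, with 12 of 22 below 0, where 51.4% of all genes were below 0. With each array centred on the median of all genes these medians were 0.018 and 0.057, so the family had no settled direction here. The individual differences ran from -0.52 for Rpl22 to 0.51 for Rps27l.

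Rpl22, which also binds cellular and viral RNAs, had levels of 7.38, 8.55, 6.86 and 8.51, with heme surface the lowest. Rplp2 and Rpl14 differed at the surface by -0.48 and -0.47. Rps14, a protein of the decoding path, had levels of 10.70, 11.46, 10.19 and 11.27 and differed by -0.51 at the surface. These 4 genes were below 0 at the surface in each of the 3 scalings tried. Rps7 and Rps20 differed by -0.33 and -0.29. Rpl38, known for its role in the translation of Hox mRNAs in the embryo, had levels of 9.45, 10.78, 9.87 and 10.69 and differed by 0.41 at the surface. Rpl12 differed by 0.39, with both of its surface levels below the floor, and Rpl41 by 0.31. Rps25, Rps2 and Rpsa were the next small subunit genes above 0 after Rps27l, at 0.18, 0.17 and 0.17. Rpl38 and Rpl41 were above 0 in each scaling, with ranges of 0.28 to 0.52 and 0.13 to 0.42.

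In crypt cells, no member differed 2-fold between the diets, against 1.78% of all genes higher and 1.19% lower. The large subunit genes had a median of -0.12, with 28 of 34 below 0, and the small subunit genes -0.11, with 16 of 22 below 0, where 48.4% of all genes were below 0. The medians stayed below 0 in every alternative, between -0.12 and -0.051 for the large and -0.13 and -0.042 for the small subunit. Rpl32l differed by -0.45, Rpl5 by -0.31 and Rpl36a by -0.28. Rps28 differed by -0.31, Rps7 by -0.28 and Rps15 by -0.24. Of these 6 genes, Rpl5, Rps7, Rps15 and Rpl36a were also below 0 at the surface, at -0.27, -0.33, -0.21 and -0.047. The value of Rpl36a was smaller in size than the large subunit median there, -0.090, which median centring turned to 0.018. Its sign at the surface is thus not settled. Rpl14, Rpl41 and Rpl36 had the most positive large subunit values, 0.11, 0.052 and 0.047, and Rps4l and Rps21 followed Rps27l in the small subunit at 0.22 and 0.20. The 2 probe sets of Rps21 differed by 0.63 in this comparison. In both compartments together, 21 of 33 large subunit genes (63.6%) and 12 of 22 small subunit genes (54.5%) were below 0, and 31.9% of all genes were. These counts hold for the deposited values and were not repeated with the other scalings. Between scalings, 22 members changed sign at the surface and 9 in the crypt, so the counts depend on the scaling.

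Rps27l had the most positive heme minus control difference of the members in both compartments. It is a close relative of Rps27 and a known target of p53. Its levels were 7.54, 7.88, 8.06 and 8.52, so both heme arrays were above both control arrays. Of the other members above the floor, only Rps4l shared this order, and only in the average of its probe sets. Neither probe set of Rps4l had the order alone. The heme minus control difference of Rps27l was 0.51 at the surface and 0.63 in the crypt. In the crypt it was the 1 member of 56 beyond 1.5-fold, a smaller share than the 5.89% of all genes higher and 5.6% lower. The difference ranged from 0.45 to 0.62 at the surface and from 0.63 to 0.70 in the crypt over the scalings. Its surface minus crypt differences were -0.34 and -0.46. It was measured by 1 probe set.

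**Figure D4:**
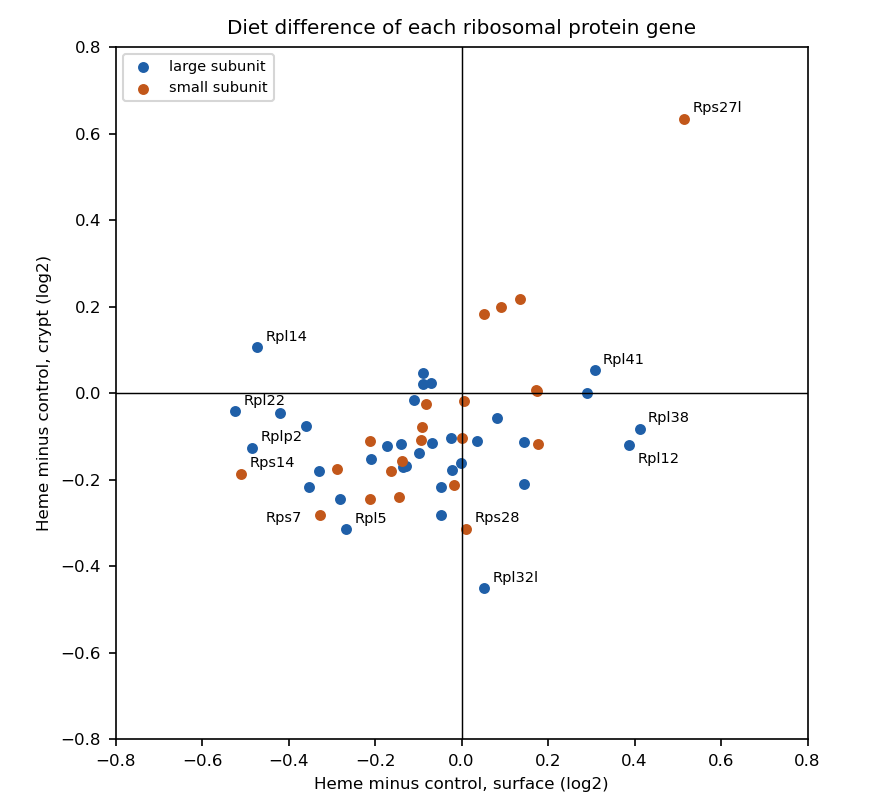
Heme minus control difference in log2 level at the surface (horizontal axis) and in the crypt (vertical axis), each point 1 of the 56 members at or above the floor on at least 1 array, blue for the large and orange for the small subunit. Most points lie within 0.5 of 0 on both axes, and Rps27l lies apart at 0.51 and 0.63.

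The diet difference at the surface minus that in the crypt, which is also the change of the surface to crypt gap between the diets, was near 0 for both subunits. Its median was 0.040 for the large and 0.015 for the small subunit, and no member reached 2-fold, against 2.17% of all genes lower and 3.29% higher. With cyclic loess these medians were -0.12 and -0.093. The gap was narrower on heme in 19 of 34 large subunit genes and wider in 15, and narrower in 12 of 22 small subunit genes and wider in 10. Of all genes, 47.8% were above 0 in this measure and 52.2% below. Rpl14 (-0.58), Rpl22 (-0.48), Rpl26 (-0.37) and Rplp2 (-0.36) had the most negative values, a wider gap on heme. Rpl12 (0.51), Rpl32l (0.50), Rpl38 (0.49) and Rpl10a (0.35) had the most positive. Each of Rpl14, Rpl22, Rpl26, Rplp2, Rpl12 and Rpl32l was measured by a single probe set.

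Markers of other cells moved with these comparisons. The 9 measured genes of dividing cells were all at least 2-fold lower at the surface on both diets, against 13.5% and 16.5% of all genes. Their medians were -1.86 on the control diet and -3.11 on the heme diet. On heme in the crypt, 7 of 9 were at least 2-fold higher, against 1.78% of all genes, and the median of the 9 was 1.47. The summed level of these 9 genes on the log2 scale was 8.84, 10.97, 9.17 and 12.28. The ribosomal protein genes, at medians of -0.12 and -0.11 in that crypt comparison, did not share the direction of the dividing-cell genes there. Pan-epithelial markers were above 0 in surface minus crypt in 8 of 8 genes on both diets, against 47.4% and 47.6% of all genes. Their summed levels were 14.98, 14.07, 15.06 and 13.99. Stromal markers were below 0 on heme against control in the crypt in 10 of 10 genes, 3 of them at least 2-fold. Of all genes, 48.4% were below 0 in that comparison and 1.19% were at least 2-fold lower. The summed stromal levels were 11.96, 12.46, 11.47 and 11.60. Leukocyte markers were below 0 in the same crypt comparison in 6 of 6 compared genes, with summed levels of 11.02, 10.88, 11.11 and 10.48. Of the 10 listed, 2 were below the floor on every array. Endothelial markers were below 0 there in 5 of 5 genes, with summed levels of 10.17, 9.46, 10.12 and 8.71. Surface colonocyte markers were higher on heme in the crypt by a median of 1.24. The part of these cells in the ribosomal protein values was not tested.

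Goblet cell markers were at least 2-fold higher at the surface in 3 of 7 genes and lower in 3, on either diet. Of all genes, 12% and 15.3% were higher and 13.5% and 16.5% were lower on the control and heme diets. Enteroendocrine markers had median surface minus crypt differences of 0.15 and 0.16 on the control and heme diets. Single genes ran from Gcg at -2.94 to Tph1 at 1.44 on the control diet, and from -1.11 to 2.36 for the same genes on heme. Tuft cell markers had a median surface minus crypt difference of 0.45 on the control diet. On heme against control at the surface, 4 of 5 were below 0, 3 of them at least 2-fold. Of all genes, 51.4% were below 0 in that comparison and 2.01% were at least 2-fold lower.

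The other genes of protein synthesis were set beside the family. Ribosome biogenesis genes, which make ribosomal RNA and assemble the subunits, had the largest differences of these lists. At the surface, 22 of 24 were at least 2-fold lower on the control diet and 23 on the heme diet, against 13.5% and 16.5% of all genes, with medians of -1.75 and -2.11. Dkc1, of the pseudouridylation complex, had the largest difference at -2.93 and -3.01, and Nop56, of the C/D box small nucleolar particles, had levels of 7.19, 9.73, 7.13 and 9.97. In the crypt, 22 of 24 were above 0 on heme against control, with a median of 0.24, where 51.5% of all genes were above 0. None was at least 2-fold higher, and 1.78% of all genes were. The median of the biogenesis genes at the surface was -0.020 and lay between 0.032 and 0.088 with the other scalings. Ubtf, a factor for ribosomal RNA transcription, was the gene with levels nearly equal on all arrays, 9.29, 9.09, 9.08 and 9.15.

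Mitochondrial ribosomal protein genes, which build the separate ribosome of the mitochondrion, followed the same direction along the crypt axis and another one with diet. Their median surface minus crypt difference was -0.55 on the control diet, with 12 of 74 (16.2%) at least 2-fold lower against 13.5% of all genes, and -0.66 on the heme diet, with 18 of 77 (23.4%) against 16.5%. The control diet share was near that of all genes. On heme against control their medians were 0.28 at the surface, with 58 of 75 genes above 0, and 0.34 in the crypt, with 71 of 76 above 0. Of all genes, 48.5% and 51.5% were above 0. Both heme medians were above 0 in every scaling, from 0.28 to 0.39 and from 0.34 to 0.41. In both compartments together, 56 of 74 mitochondrial genes (75.7%) were above 0, as were 3051 of 9523 genes of all kinds. Of the cytosolic ribosome, 2 of 33 large (6.06%) and 6 of 22 small (27.3%) subunit genes were. The small subunit share was near that of all genes, and the large subunit share was below it, in the deposited values. The shares in both compartments together were not counted with the other scalings. Mrps6 was the sole mitochondrial member at least 2-fold higher on heme at the surface, by 1.18, and its surface minus crypt differences were 1.04 and 1.80.

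Translation initiation factors were lower at the surface by medians of -0.76 and -0.83, with 11 of 29 at least 2-fold lower on each diet, against 13.5% of all genes on the control diet and 16.5% on the heme diet. Eif2b1, a subunit of the exchange factor for the initiator complex, differed by -2.10 on the control diet, whereas Eif2s2, a subunit of the initiator complex itself, was higher at the surface by 2.03. On heme against control their medians were 0.23 at the surface and 0.19 in the crypt, on the side of the mitochondrial genes. Of the 10 measured genes listed with the elongation and release factors, all were below 0 at the surface. On either diet 4 were at least 2-fold lower, against the same 13.5% and 16.5% of all genes. Eef1e1, a component of the aminoacyl-tRNA synthetase complex, differed by -2.60, and Abce1, which recycles ribosomes, by -2.06. Both are counted in this list beside the factors themselves.

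Other genes with a 5′ terminal oligopyrimidine tract share their translational control with the ribosomal proteins. Of 15 measured, 7 were at least 2-fold lower at the surface on each diet, against 13.5% and 16.5% of all genes, with medians of -0.78 and -0.99. Their diet medians were -0.20 at the surface and -0.10 in the crypt, with 11 and 12 of 15 below 0, against 51.4% and 48.4% of all genes. Several of them are also counted among the initiation factors, the elongation factors or the biogenesis genes. Fau, which encodes a ribosomal protein fused to a ubiquitin-like protein, had levels of 9.73, 9.72, 9.74 and 9.66, without the gap of the family. Of the 6 listed relatives and fusions outside the naming rule, Fau and Rpl7l1 were measured, and Rpl7l1 differed by -0.77 and -1.05 between surface and crypt.

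**Figure D5:**
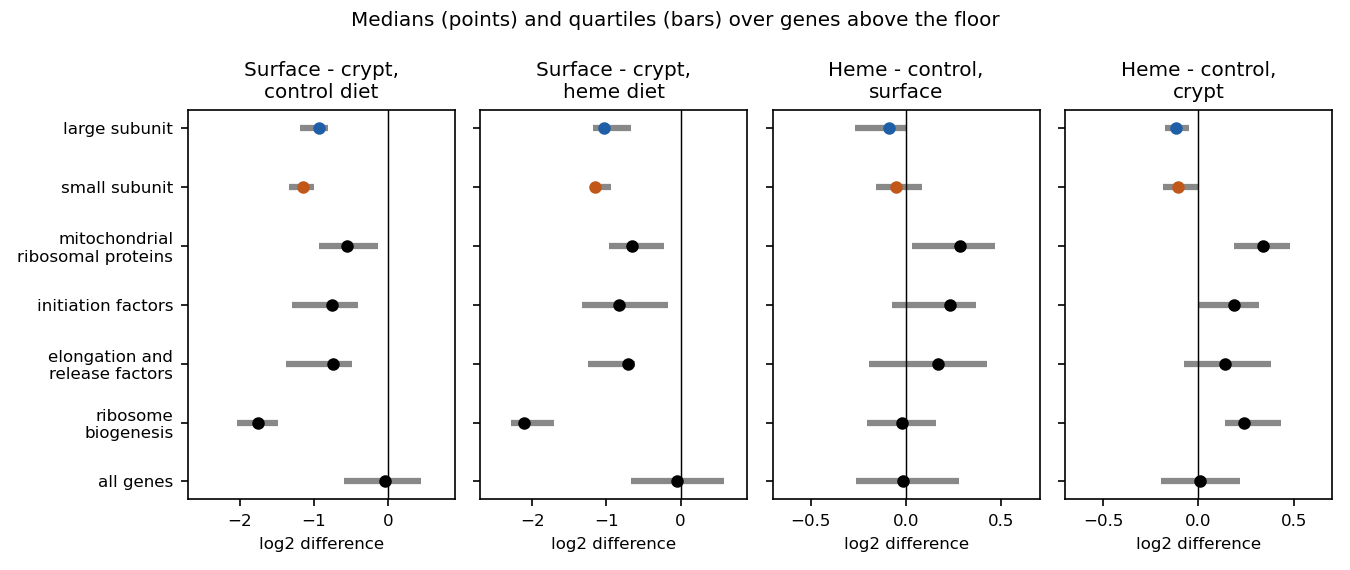
Median (points) and quartiles (bars) of the log2 difference (horizontal axis, scale differing between the left and right pairs of panels) over the genes above the floor in each list, with all genes in the bottom row. The crypt panel of the diet comparison shows cytosolic subunits at -0.12 and -0.11 and the mitochondrial list at 0.34.

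The 16 measured regulators of ribosomal protein synthesis had surface minus crypt medians of -0.049 and 0.24 on the control and heme diets, over 15 above the floor. The control diet median was above 0 with the other scalings. On each diet 2 of 15 (13.3%) were at least 2-fold lower at the surface, against 13.5% and 16.5% of all genes. Above 0 were 6 of 15 on the control diet and 10 of 15 on the heme diet, against 47.4% and 47.6% of all genes. Myc, which drives transcription of ribosome genes, had levels of 6.05, 8.80, 5.30 and 8.56 and differed by -2.76 and -3.26 between surface and crypt. Larp1, the repressor of oligopyrimidine mRNAs, had levels of 8.59, 9.79, 8.21 and 9.98 and differed by -1.20 and -1.77. Mtor differed by 0.19 on the control diet. Eif4ebp1, an inhibitor of cap-dependent translation that mTOR switches off, had levels of 6.93, 7.09, 8.64 and 7.17, so the heme surface array alone was high, by 1.71 over control surface. Eef2k, the kinase that slows elongation, had levels of 8.52, 7.37, 7.47 and 7.23 and differed by -1.06 on heme against control at the surface. These single-array differences have no replicate check, and other listed regulators differed less than 2-fold between diets.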

How the data were processed

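Gene expression was measured on 4 arrays, each from 100 ng of RNA pooled over the mice of a group. The deposited values are log2 expression levels that the authors computed by RMA, which is named in the submitters' processing notes. Whether the arrays were normalized together is not given in the sources used here. Of 35556 probe sets, 21789 carried 1 gene symbol, 1621 several and 12146 none. Single-symbol probe sets were averaged per gene with Python 3.11.15 and pandas 2.3.3 after symbols were updated through RefSeq. Differences of log2 values were counted at 2-fold, with a floor at the median of all gene values. The precision is limited by the number of arrays, since no group had replicates. Named genes were the 5 highest and 5 lowest surface to crypt differences and the 3 highest and 3 lowest diet differences per subunit, with fixed subgroups of the ribosome. The 59 members and all gene lists were chosen with earlier results of these data known. Alternatives were an offset of 32, other floors, a 1.5-fold size, median centring, cyclic loess and quantile normalization (limma 3.58.1), the highest probe set per gene, members with 1 probe set, members without 5 relatives and, chosen after seeing the data, identical probe sets counted once. The counting and the difference steps were tested on simulated data.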

Additional observations from a re-analysis of the deposited data

Results flagged for a closer look

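For 2 genes the diet difference had opposite signs in surface and crypt and differed by at least 0.5 on the log2 scale between them. Rpl14 differed by -0.47 on heme at the surface and by 0.11 in the crypt, a difference of -0.58. Rpl32l differed by 0.052 at the surface and by -0.45 in the crypt, a difference of 0.50. Each rests on 1 array per group and 1 probe set, and the difference was not tested.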

How the results depend on the processing

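No result reversed a called direction in any of the alternatives. This covers only results of at least 2-fold, and no diet difference of a member had that size, so it says nothing about the diet comparisons. No paired analysis was possible because each group holds 1 array, and for the same reason no replicate could be left out. In surface against crypt, the medians kept their sign in every alternative: -1.06 to -0.83 for the large and -1.22 to -1.03 for the small subunit on the control diet, and -1.16 to -0.88 and -1.23 to -1.01 on the heme diet. The ends of these ranges and other moved values came from a few settings. With median centring, which shifted the median of all genes to 0.17 and 0.16 in these comparisons, the medians were -0.83 and -1.04 on the control diet and -0.88 and -1.01 on the heme diet, and 10 large subunit genes were lower by 2-fold on heme in place of 19. With an offset of 32 the large subunit median on heme was -0.90, and with cyclic loess the control diet medians were -0.83 and -1.03. With a 1.5-fold size, 32 large subunit genes were lower on the control diet and 1 small subunit gene was higher in the heme crypt. Over members with 1 probe set, 12 large and 5 small subunit genes, the large subunit medians were -1.06 and -1.16, with 7 and 10 genes lower, and 4 small subunit genes were lower on either diet. The diet medians at the surface had no stable sign: 0.018 and 0.057 with centring, -0.23 and -0.15 with cyclic loess, -0.21 for the large subunit with quantile normalization and -0.33 over its members with 1 probe set. The surface diet difference minus that of the crypt was -0.12 and -0.093 with cyclic loess, -0.090 for the large subunit with quantile normalization, and -0.12 and -0.11 over members with 1 probe set. The cause of these moves was not tested, beyond the fewer genes in the last setting. Of single genes, 22 changed sign between scalings in the diet comparison at the surface and 9 in the crypt. The 10 members with a mean level of at least 11 had a median of -0.89 on the control diet, the 32 from 9 to 11 had -1.09 and the 13 below 9 had -1.03. A single pooled array per group limits every value here.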
